A study of Mus musculus with 18 samples.

Results

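The clustered protocadherins are a family of cell adhesion molecules encoded by 3 adjacent gene clusters, alpha, beta and gamma, on mouse chromosome 18. Members were taken as the rows of the deposited count tables whose Entrez number maps in RefSeq to a symbol that begins with *Pcdha*, *Pcdhb*, *Pcdhga*, *Pcdhgb* or *Pcdhgc*. Of 58 such genes in RefSeq, 57 of the 24100 genes of each table are members: 14 alpha, 21 beta and 22 gamma genes. *Pcdhb21* was not analysed here. On mm10 (GRCm38), by the gene positions listed with the RefSeq symbols, the alpha cluster spans positions 36930285 to 37187663 of chromosome 18, the beta cluster 37264998 to 37521419 and the gamma cluster 37661775 to 37841873.

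The study compared C3H/10T1/2 cells, a mouse line of mesenchymal progenitor cells, with and without the chromatin remodeller ATRX. Both polyA-selected and rRNA-depleted RNA was sequenced, with 3 lines and 3 libraries a line for each, 18 libraries in all. *Atrx* WT is a line that received Cas9 with an empty vector, sg5 is the *Atrx* knockout (KO) clone G7 and sg6 the KO clone B10, each made with a different guide RNA in *Atrx*. Each KO line is 1 clone, so n = 3 counts libraries of 1 line, the p-values measure the spread between those libraries, and the effect of the knockout cannot be told apart from other differences between the lines.

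In the alpha and gamma clusters, each of a row of variable exons has its own promoter and encodes the extracellular cadherin repeats, and it is spliced to constant exons that all members of that cluster share. The beta genes are single-exon genes with no shared constant exons. In neurons, a cell transcribes a few of these genes, the choice is tied to CTCF and cohesin at the promoters and to DNA methylation, and the resulting set of proteins gives the cell a surface identity by homophilic binding. The last genes of the alpha and gamma clusters (*Pcdhac1*, *Pcdhac2*, *Pcdhgc3*, *Pcdhgc4* and *Pcdhgc5*) are called C-type and are transcribed more evenly across neurons.

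The shared exons set how far a count can be assigned to 1 gene. In the annotation, 44.7% of a gamma gene's exon bases (median of 22 genes, range 27.8% to 66.8%) are also exon bases of another gene of these clusters, and 53.5% of an alpha gene's (38.0% to 91.4%), against 0% to 6.88% for the beta genes. Beta genes are still alike in sequence, since up to 22.5% of their 31-base words occur in another member. Antisense genes overlap exons of *Pcdhb12*, *Pcdhga7*, *Pcdhga8*, *Pcdhga10*, *Pcdhgb7* and *Pcdhgc3* among others, the strand setting of the counting is not given in the sources used here, and reads of the 2 strands cannot be told apart at those exons.

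*Atrx* RNA was lower in every KO library. In the polyA libraries it stood at 276, 297 and 328 CPM (the count over the TMM-scaled library total) in WT, at 138, 114 and 129 in sg5 and at 122, 129 and 141 in sg6. The log2 fold changes were -1.24 ± 0.10 and -1.20 ± 0.10 (SE, adjusted p = 5.04e-05 and 5.15e-05). Library totals ran from 27544833 to 235346363 counts in polyA, with the 3 sg5 libraries the deepest, and from 20135336 to 33187136 in rRNA-depleted. Markers of mesenchymal cells were high in each line (22305 to 32908 CPM summed over 14 genes in polyA), those of blood, endothelial, epithelial and glial cells low (8.61 to 16.3 CPM over 10 genes, with *Adgre1* at 0), and the 14 neuronal genes summed to between 113 and 140 CPM (WT), 138 and 209 (sg5) and 206 and 257 (sg6). Of the neuronal genes, *Syt1* and *Gap43* fell and *Map2* rose in both clones in polyA, and of the other cell types' genes *Pecam1* and *Krt14* fell in both. Of the mesenchymal genes, *Eng* rose in both (2.17 ± 0.11 and 1.73 ± 0.11), *Thy1* was at no more than 1.1 CPM in each WT library and fell in sg5 (-1.73) and rose in sg6 (7.03), and *Nt5e* stood at or below 0.355 CPM in each polyA library. The part of these marker genes in the results below was not tested.

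The gamma cluster carried most of the clustered protocadherin RNA of these cells, the beta cluster less, and the alpha cluster almost none. In polyA, the alpha rows summed to 3 to 38 counts a library, with mean levels of 0.227 ± 0.114 CPM (WT), 0.197 ± 0.0365 (sg5) and 0.192 ± 0.0650 (sg6), each with its SD over 3 libraries. *Pcdha9*, the highest alpha row per kilobase, reached at most 29 counts in a library, *Pcdha2* and *Pcdha10* at most 5. In rRNA-depleted, the alpha rows summed to 0 to 6 counts, nearly all in *Pcdha11*, *Pcdha9* and *Pcdhac2*. At this depth no difference between the lines was detectable in the alpha cluster, since none of its 14 genes passed the filter on low counts in either kind of library. A count of 0 in a library allows up to 3 counts, a limit that covers counting error only.

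Of the beta genes, 19 passed the filter in polyA and 16 in rRNA-depleted. *Pcdhb1* had 0 counts in every library, and *Pcdhb6* reached at most 27 in polyA. Per kilobase of annotated exon, which allows levels of different genes to be compared, *Pcdhb16* led in WT with 6.99 CPM per kb in polyA, followed by *Pcdhb17* with 3.31 and *Pcdhb22* with 3.12. In sg6 the order of the first pair was the other way, with *Pcdhb17* at 3.45 and *Pcdhb16* at 2.95. Averaged over the 9 libraries of the 3 lines, the levels were 5.51, 3.83 and 2.09 CPM per kb for *Pcdhb16*, *Pcdhb17* and *Pcdhb22* in polyA, and 3.23, 2.31 and 1.0 in rRNA-depleted. At the start of the cluster, *Pcdhb2*, *Pcdhb3* and *Pcdhb4* lay at or below 1.35 CPM in each polyA library.

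All 22 gamma genes passed the filter in both kinds of library. *Pcdhgc3* (Entrez 93706), a C-type gene whose protein is known to dampen Wnt signalling, stood far above the rest with 158 CPM per kb over the 9 polyA libraries, and *Pcdhgb7* came next with 12.5. The gene after these was *Pcdhga6* in both clones, at 2.67 CPM per kb in sg5 and 3.61 in sg6, and *Pcdhgb2* in WT, at 2.69. *Pcdhgc3* made up 81.5% ± 6.06 of the gamma sum in WT, 86.8% ± 0.739 in sg5 and 87.3% ± 1.24 in sg6 (SD, n = 3 each). The other C-type genes, *Pcdhgc4*, which neurons need for survival, and *Pcdhgc5*, lay between 3.80 and 7.64 CPM.

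**Figure D1:**
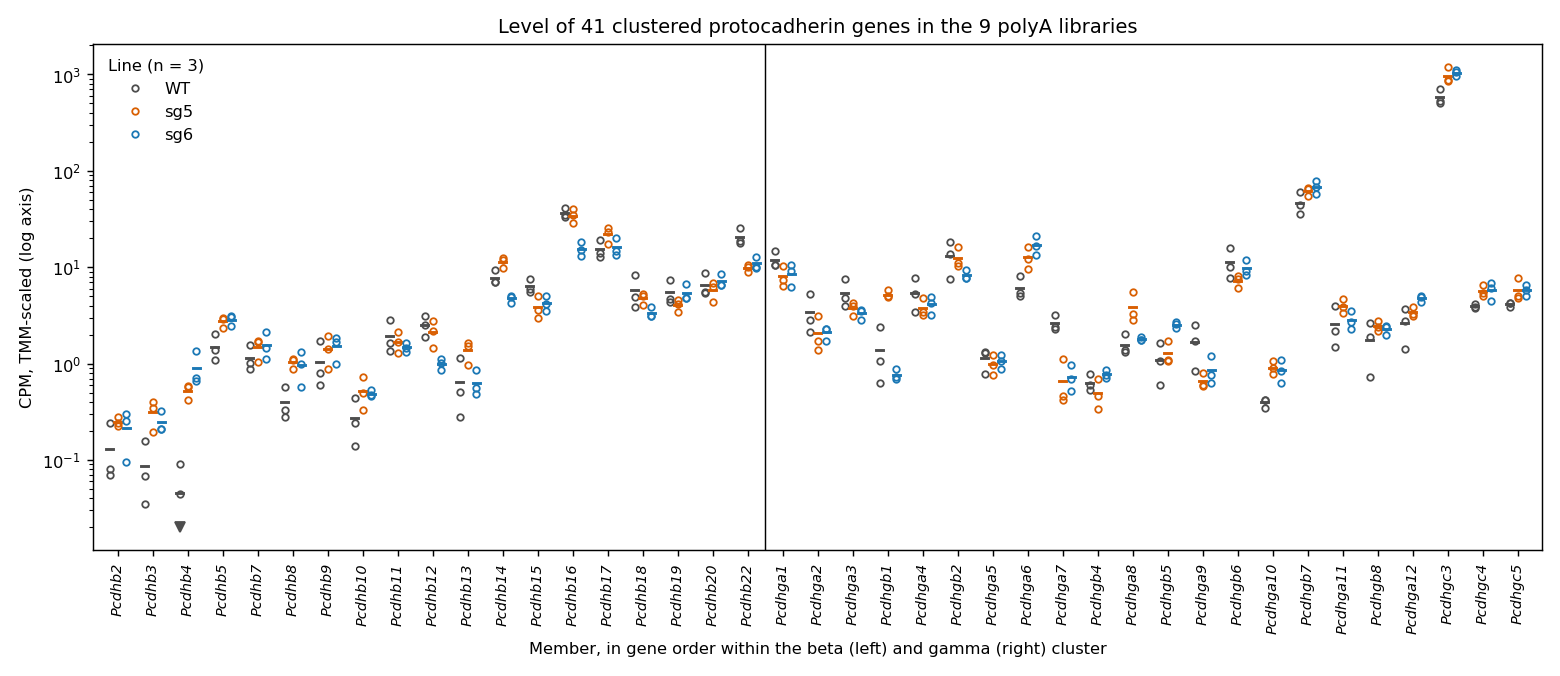
Level of each beta and gamma gene that passed the filter in the 9 polyA libraries, in CPM on a log axis, with genes in their order along the clusters. Circles are libraries, dashes the mean of 3, and the triangle a library at 0; *Pcdhgc3* lies between 503 and 1195 CPM and *Pcdhb4* below 0.1 CPM in each WT library.

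A gene is said to rise or fall where its log2 fold change lay beyond 1 with an adjusted p below 0.05 (edgeR's quasi-likelihood test, Benjamini-Hochberg adjusted over 15480 genes). Against WT in polyA, 7 of the 41 members tested rose in sg5, and over all genes tested 3.18% rose. In sg6, 5 of 41 rose, with 3.64% over all genes. By cluster, 3 of 19 beta and 4 of 22 gamma genes rose in sg5, and 2 beta and 3 gamma genes in sg6. Among the beta genes that rose, *Pcdhb3* and *Pcdhb4* passed the filter on low counts only with KO libraries. A gene that passes that way tends to lie above 0. The median log2 fold change over the 41 was 0.36 in sg5 and 0.13 in sg6, with 23 and 22 above 0, and over all genes tested it was -0.00 and -0.01. Both comparisons use the same 3 WT libraries, so they are not independent of each other. In bulk libraries, a change in the number of cells that transcribe a gene and a change in RNA per cell cannot be told apart.

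*Pcdhb4* (Entrez 93875), a beta gene near the start of the cluster, was near its floor in WT and detected in every KO library. Its counts were 0, 8 and 2 in WT, 92, 96 and 92 in sg5 and 48, 41 and 76 in sg6. As levels these were 0, 0.0915 and 0.0445 CPM in WT, 0.581, 0.419 and 0.567 in sg5 and 0.710, 0.659 and 1.35 in sg6. The WT libraries lay below all 6 KO libraries. *Pcdhb4* passed the filter on low counts only with KO libraries, and a gene that passes that way tends to lie above 0. The log2 fold change was 3.10 ± 0.54 (SE, adjusted p = 0.00306) in sg5 and 3.89 ± 0.54 (adjusted p = 0.000751) in sg6, and both stayed past the threshold in each of the 9 fits that leave out one library. In polyA, *Pcdhb4* was also the only member that passed in either clone when the test was run against a log2 fold change of 1 itself (glmTreat).

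*Pcdhb8*, *Pcdhga6* and *Pcdhga10* rose in both clones as well. *Pcdhga6* (Entrez 93714) was at 4.99, 5.46 and 8.03 CPM in WT, 16.3, 9.57 and 12.1 in sg5 and 16.6, 13.5 and 21.01 in sg6, which gave 1.04 ± 0.25 and 1.47 ± 0.26 on the log2 scale (SE, adjusted p = 0.0154 and 0.00254). All KO libraries lay above all WT libraries. *Pcdhga10* was at 0.349, 0.423 and 0.422 CPM in WT, 1.05, 0.772 and 0.894 in sg5 and 0.636, 0.835 and 1.08 in sg6 (log2 fold changes 1.16 ± 0.25 and 1.07 ± 0.26, adjusted p = 0.00816 and 0.0125). *Pcdhb8* was at 0.279, 0.332 and 0.578 CPM in WT, 1.09, 0.877 and 1.12 in sg5 and 0.577, 0.996 and 1.31 in sg6 (log2 fold changes 1.37 ± 0.35 and 1.26 ± 0.36, adjusted p = 0.0186 and 0.0266). Its lowest sg6 library, at 0.577 CPM, lay just below the highest WT library, at 0.578. These calls were less firm than that of *Pcdhb4*: *Pcdhga6* in sg5 did not pass without WT library 1 (0.92), WT library 2 (0.94) or sg5 library 1 (0.81), *Pcdhga10* in sg6 not without sg6 library 3 (0.86) and in sg5 not in counts thinned to the smallest library (1.02, adjusted p = 0.055), and *Pcdhb8* in sg5 not without WT library 2 (adjusted p = 0.091) or sg5 library 3 (0.052). In sg6 *Pcdhb8* did not pass without WT library 1 (adjusted p = 0.058), WT library 2 (0.11), sg6 library 2 (0.067) or sg6 library 3 (0.079), or with only WT and sg6 in the fit (0.059).

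In sg5, *Pcdhgb1*, *Pcdhga8* and *Pcdhb3* rose and did not pass in sg6. *Pcdhgb1* (Entrez 93699), a gamma gene of the B subfamily, was at 0.629, 1.08 and 2.42 CPM in WT, 4.97, 4.85 and 5.79 in sg5 and 0.725, 0.884 and 0.692 in sg6. All sg5 libraries stood above the other 6, and the log2 fold change was 1.90 ± 0.38 in sg5 (SE, adjusted p = 0.00596) and -0.86 ± 0.40 in sg6 (adjusted p = 0.136). *Pcdhga8* was at 1.33, 1.37 and 2.02 CPM in WT and 5.49, 3.30 and 2.84 in sg5 (1.30 ± 0.27, adjusted p = 0.00779), and *Pcdhb3* at 0.0349, 0.0686 and 0.156 CPM in WT and 0.347, 0.196 and 0.401 in sg5 (1.81 ± 0.48, adjusted p = 0.0213). *Pcdhga8* did not pass without sg5 library 1 (0.96), and *Pcdhb3* not without WT library 2, sg5 library 1 or sg5 library 3 (adjusted p = 0.11, 0.051 and 0.061). In sg6, *Pcdhgb5* rose without passing in sg5: it was at 0.594, 1.06 and 1.62 CPM in WT and 2.59, 2.68 and 2.36 in sg6 (1.19 ± 0.33, adjusted p = 0.0221). That call was lost without WT library 1 (0.94), WT library 2 (adjusted p = 0.083), sg6 library 1 (0.054) or sg6 library 2 (0.062).

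*Pcdhgc3*, the most abundant member, was at 709, 503 and 534 CPM in WT, 1195, 846 and 885 in sg5 and 1113, 955 and 1057 in sg6. The 6 KO libraries lay above the 3 WT libraries, by 0.74 ± 0.17 and 0.84 ± 0.17 on the log2 scale (SE, adjusted p = 0.0104 and 0.00497), past the adjusted p and below the minimum fold. *Pcdhb5* stood likewise at 0.86 ± 0.23 and 0.92 ± 0.24 (adjusted p = 0.0239 and 0.0164).

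In polyA, 3 of 41 members fell in each clone, where 6.96% of all genes tested fell in sg5 and 7.54% in sg6. *Pcdhga7* (Entrez 93715) was the 1 member that fell in both. It was at 3.18, 2.41 and 2.27 CPM in WT, 1.105, 0.419 and 0.463 in sg5 and 0.976, 0.514 and 0.692 in sg6, each KO library below each WT library. The log2 fold changes were -1.98 ± 0.39 and -1.83 ± 0.41 (SE, adjusted p = 0.00579 and 0.00841), and they passed in each fit that leaves out one library. No member rose in one clone and fell in the other, but without WT library 1 *Pcdhgb1* passed as lower in sg6 (-1.15, adjusted p = 0.0257), a gene that rose in sg5.

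*Pcdhb16* (Entrez 93887), the highest beta gene per kilobase in WT, fell in sg6 and not in sg5. It was at 35.2, 33.3 and 41.1 CPM in WT, 39.8, 28.7 and 34.6 in sg5 and 15.1, 12.9 and 18.2 in sg6. The sg6 libraries lay apart from all others, while the WT and sg5 ranges overlapped, and the log2 fold change was -1.24 ± 0.16 in sg6 (SE, adjusted p = 0.000521) and -0.09 ± 0.16 in sg5 (adjusted p = 0.719). *Pcdhb12* fell in sg6 as well, from 1.89, 2.53 and 3.14 CPM to 1.01, 0.851 and 1.12 (-1.35 ± 0.28, adjusted p = 0.00636). Both passed in every fit that leaves out one library.

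In sg5, *Pcdhb22* and *Pcdhga9* fell. *Pcdhb22* (Entrez 93893), the last gene of the beta cluster, was at 17.8, 18.7 and 25.4 CPM in WT, 10.1, 8.94 and 10.5 in sg5 and 9.88, 10.1 and 12.9 in sg6. Each KO library was below each WT library, with -1.07 ± 0.16 in sg5 (SE, adjusted p = 0.0015) and -0.92 ± 0.16 in sg6 (adjusted p = 0.00286), on either side of the minimum fold. The sg5 value was -0.89 without WT library 3 and just short of the minimum fold without sg5 library 2. *Pcdhga9* went from 0.838, 1.72 and 2.51 CPM in WT to 0.60, 0.803 and 0.592 in sg5 (-1.36 ± 0.37, adjusted p = 0.0244), and this call was lost without WT library 2 (adjusted p = 0.070), WT library 3 (0.081), sg5 library 1 (0.067) or sg5 library 3 (0.076).

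**Figure D2:**
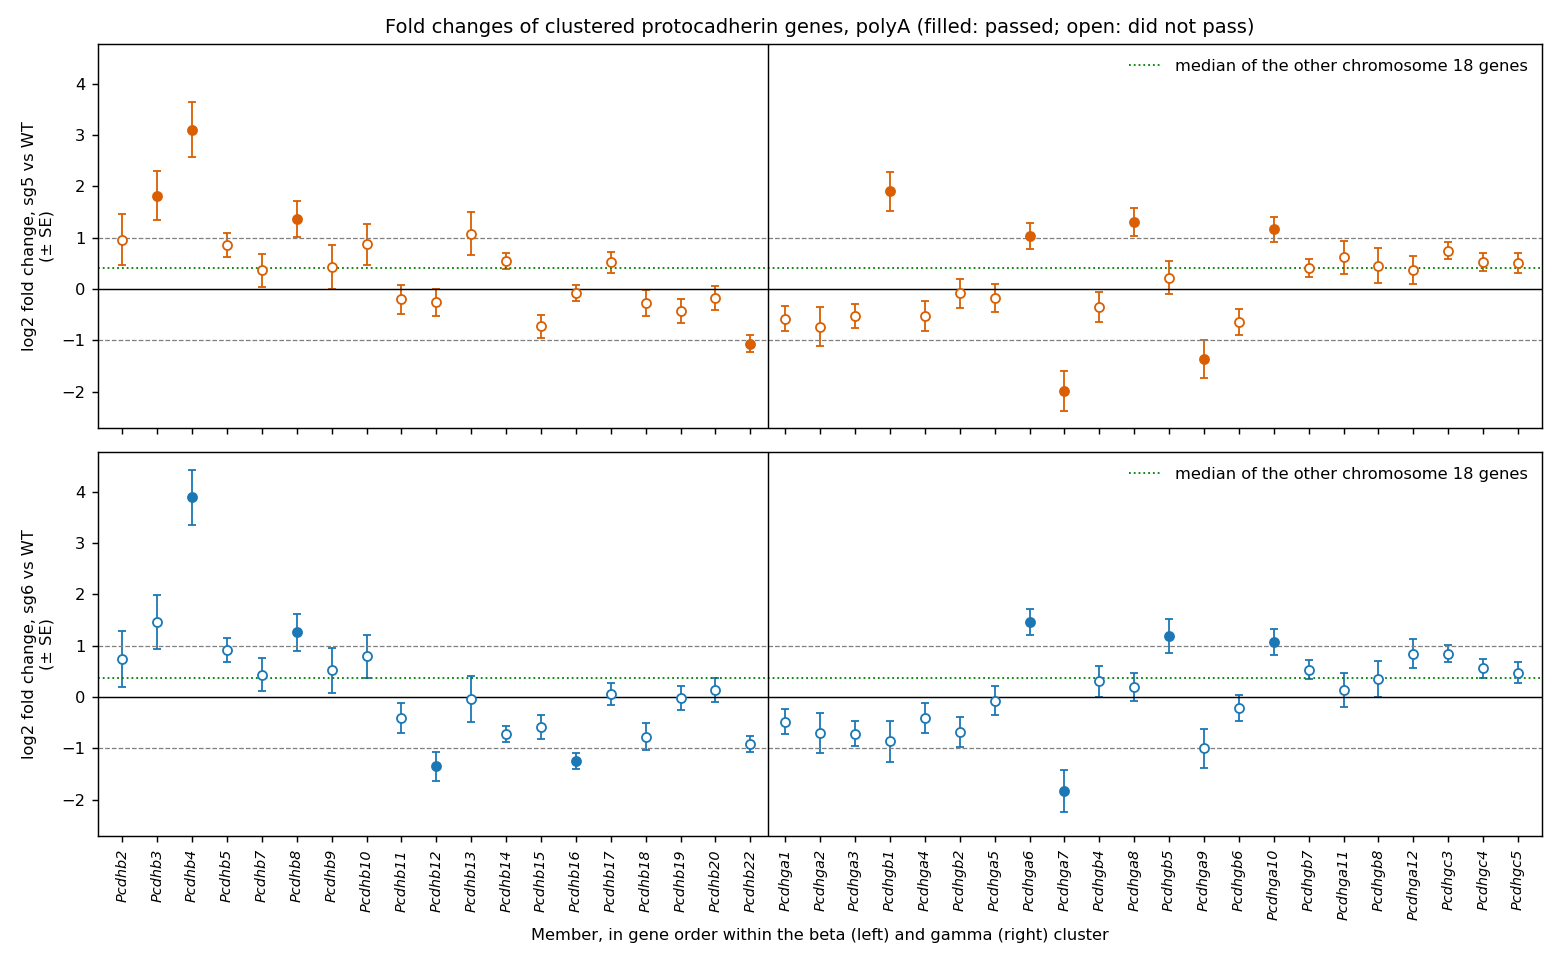
Log2 fold change of each member against WT in the polyA libraries, sg5 above and sg6 below, with SE bars and genes in order along the beta (left) and gamma (right) clusters. Filled points passed the threshold, dashed lines mark the minimum fold, and the dotted line is the median of the other chromosome 18 genes (0.41 in sg5, 0.37 in sg6).

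The number of members past the threshold moved with single libraries. In sg5 the count of rises was 4 without WT library 2 or without sg5 library 1 and 11 without WT library 3, and the count of falls was 1 without WT library 3. Over all genes, 370 of 15522, 436 of 15639 and 443 of 15682 rose in those fits, and 933 fell without WT library 3. In sg6 there were 3 rises without WT library 2 or sg6 library 3, 8 rises without WT library 3, and 6 falls without WT library 1. Over all genes, 465 of 15522, 565 of 15813 and 553 of 15682 rose in those fits, and 1342 of 15758 fell without WT library 1. By rank alone, 12 of 41 members were higher in every sg5 library than in every WT library and 5 lower, where 21.2% and 20.3% of all genes were. In sg6 the counts were 11 and 9, with 22.4% and 20.0% of all genes.

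Set against each other in polyA, the clones differed in 3 of the 41 members, each higher in sg5, where 1.36% of all genes tested were higher in sg5 and 1.25% lower. *Pcdhgb1* differed most, with a log2 fold change of 2.76 ± 0.39 (SE, adjusted p = 0.00395), which also passed the test against a log2 fold change of 1. *Pcdhb16* differed by 1.16 ± 0.16 (adjusted p = 0.00333). *Pcdhb14* was at 7.09, 6.98 and 9.36 CPM in WT, 12.4, 9.84 and 11.9 in sg5 and 5.07, 4.21 and 4.94 in sg6, 1.26 ± 0.16 higher in sg5 than in sg6 (adjusted p = 0.00183). It lay above WT in sg5 (0.54 ± 0.16, adjusted p = 0.0301) and below WT in sg6 (-0.72 ± 0.16, adjusted p = 0.00833), neither beyond the minimum fold. These 3 calls held in each fit that leaves out one library. With the replicate number as a block, which the pairing check met for this comparison, 5 members were higher in sg5, the 3 above and *Pcdhb12* (1.07 ± 0.25, adjusted p = 0.0391) and *Pcdhga8* (1.07 ± 0.27, adjusted p = 0.0474). With that block, 269 of 15480 genes were higher in sg5 and 245 lower.

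Summed over its 22 genes, the gamma cluster was at 806, 624 and 704 CPM in WT, 1368, 972 and 1029 in sg5 and 1256, 1098 and 1227 in sg6 in polyA. All 6 KO libraries lay above WT, a log2 ratio of means of 0.66 in sg5 and 0.75 in sg6. Without *Pcdhgc3* the gamma sum averaged 129 ± 36.7 CPM (WT), 147 ± 23.3 (sg5) and 152 ± 15.5 (sg6), each with its SD over 3 libraries, and the lines overlapped. The beta sum was at 99.2, 103 and 141 CPM in WT, 125, 89.97 and 114 in sg5 and 74.8, 68.7 and 94.6 in sg6, a log2 ratio of -0.06 in sg5 and -0.53 in sg6, with the sg6 libraries below the WT ones.

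**Figure D3:**
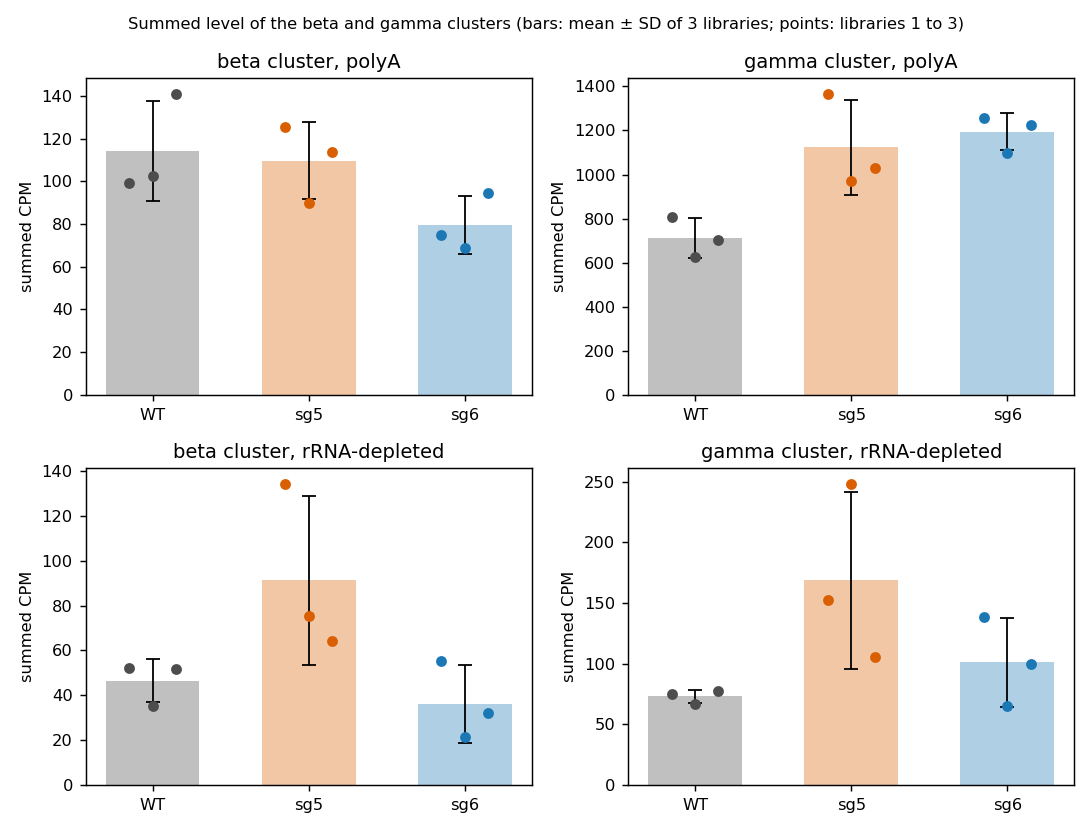
Summed CPM of the beta and gamma clusters by line, in polyA (top) and rRNA-depleted (bottom) libraries. Bars are means with SD over 3 libraries and points the libraries; the polyA gamma sums of both clones lie above WT, and the sg6 beta sums of polyA below.

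A shift along the whole chromosome stood beside these values. Of the 377 other chromosome 18 genes tested in polyA, 303 lay above 0 in sg5 and 285 in sg6, at a median log2 of 0.41 and 0.37, where the median of all genes tested was -0.00 in sg5 and -0.01 in sg6. The medians were alike on both sides of the clusters: 0.41 (161 genes) before the alpha cluster and 0.41 (214 genes) after the gamma cluster in sg5, and 0.36 and 0.38 in sg6. Among 24 tested genes of a list of direct neighbours, the median was 0.39 in sg5 and 0.49 in sg6, and their summed level lay between 993 and 1028 CPM in WT, between 1357 and 1389 in sg5 and between 1428 and 1501 in sg6. Of the 24, 0 rose and 1 fell in each clone, *Arap3*. *Taf7*, a general transcription factor gene between the beta and gamma clusters, was at 7.72, 7.52 and 6.36 CPM in WT, 9.43, 9.35 and 8.99 in sg5 and 7.72, 7.005 and 7.46 in sg6 (0.36 ± 0.11 and 0.04 ± 0.11, adjusted p = 0.0401 and 0.825). *Slc25a2*, also between them, stayed below 0.18 CPM and was not tested in polyA.

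With the chromosome 18 median taken off each fold change, 3 members passed as higher in sg5 (*Pcdhb3*, *Pcdhb4* and *Pcdhgb1*) and 2 in sg6 (*Pcdhb4* and *Pcdhga6*), against 7 and 5 as fitted, while 4 and 5 passed as lower, the adjusted p being that of the fit without this step. *Pcdhb8* then stood at 0.96 and 0.90 and *Pcdhga10* at 0.76 and 0.70 in sg5 and sg6, *Pcdhga6* at 0.63 and *Pcdhga8* at 0.89 in sg5, and *Pcdhgb5* at 0.83 in sg6. The part of the chromosome-wide shift in the members' values was not tested.

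**Figure D4:**
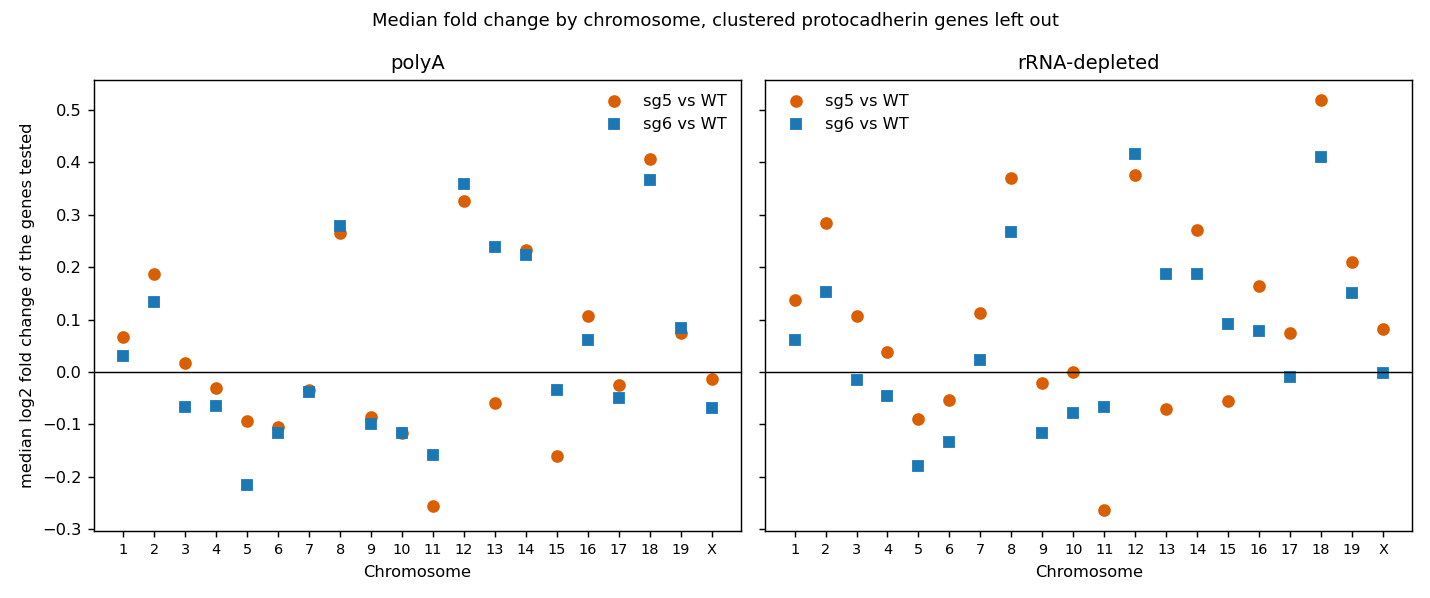
Median log2 fold change against WT of the genes tested on each chromosome, members left out, for polyA (left) and rRNA-depleted (right) libraries. Circles are sg5 and squares sg6; chromosome 18 lies at 0.41 and 0.37 in polyA and at 0.52 and 0.41 in rRNA-depleted.

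The beta genes divided along the cluster, a split chosen after their values were seen. From *Pcdhb2* to *Pcdhb10*, 8 of 8 tested genes had a polyA log2 fold change above 0 in each clone, with medians of 0.91 in sg5 and 0.86 in sg6. From *Pcdhb11* to *Pcdhb22*, 3 of 11 were above 0 in sg5 and 2 of 11 in sg6, with medians of -0.20 and -0.58. In rRNA-depleted, 6 of 6 tested genes of the first stretch were above 0 in each clone (medians 1.90 and 1.30), and of the second stretch 9 of 10 in sg5 (median 0.88) and 3 of 10 in sg6 (-0.45), so in sg5 both stretches lay mostly above 0 there. All 6 genes of the first stretch lay at or below 0.455 CPM in each rRNA-depleted WT library. They passed the filter on low counts only with KO libraries, as did *Pcdhb2*, *Pcdhb3* and *Pcdhb4* in polyA. A gene that passes that way tends to lie above 0, so these counts of signs do not test a split. In polyA, across the 19 genes, Spearman's rho between order and log2 fold change was -0.74 in sg5 and -0.71 in sg6, a description over genes of 1 locus measured in the same libraries. Order also ran with level, at a rho of 0.84 between order and mean CPM per kb, so most early genes had lower levels than most late ones.

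The lines also differed in the share that *Pcdhb22*, *Pcdhb16* and *Pcdhb17* took of the beta sum, 3 genes chosen after their values were seen. *Pcdhb22* made up 18.05% ± 0.172 of the beta sum in WT, 9.07% ± 0.954 in sg5 and 13.8% ± 0.744 in sg6 in polyA, and 18.2% ± 1.51, 6.72% ± 0.639 and 15.1% ± 0.709 in rRNA-depleted (SD, n = 3 each). *Pcdhb16* made up 32.4% ± 3.19 in WT, 31.3% ± 0.826 in sg5 and 19.4% ± 0.734 in sg6 in polyA, and 31.6% ± 1.21, 33.6% ± 4.38 and 17.3% ± 1.07 in rRNA-depleted. *Pcdhb17* was the larger share in both clones, at 13.5% ± 0.498 in WT, 20.1% ± 0.468 in sg5 and 20.1% ± 0.980 in sg6 in polyA, and 13.1% ± 0.702, 21.0% ± 0.853 and 18.7% ± 1.44 in rRNA-depleted. For *Pcdhb22* and *Pcdhb17* the WT libraries lay apart from those of both clones, and for *Pcdhb16* those of sg6 from the rest, in both kinds of library. A share does not change with the depth of a library or with a shift common to all beta genes. A larger share is also not a higher level. *Pcdhb17* did not pass against WT in either clone in polyA. Over the alternative fits and those that leave out one library, its log2 fold change ran from 0.11 to 0.71 in sg5 and from -0.31 to 0.25 in sg6.

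In the rRNA-depleted libraries, of 38 members tested, 7 rose in sg5 and 0 fell, where 3.04% of all genes tested rose and 4.31% fell (1.19% and 1.86% over the 56086 genes and transposable element loci among which p was adjusted). In sg6, 1 rose and 0 fell, with 2.16% and 3.59% over all genes and 0.840% and 1.61% over genes and loci. At an unadjusted p under 0.05 there were 27 members in sg5 and 6 in sg6, where 32.4% and 24.3% of all genes tested were. By rank, 24 of 38 members were higher in every sg5 library than in every WT library and 0 lower, with 21.4% and 14.9% of all genes, and 5 and 2 in sg6, with 17.1% and 14.2%. In sg5, gamma rows made up 18 of the 27 members at that unadjusted p and 16 of the 24 by rank. Gamma rows share exons and held a common level in these libraries, described below, so they do not count as separate genes here. *Pcdhb5* (Entrez 93876) rose in both clones: it was at 0.294, 0.177 and 0.348 CPM in WT, 3.84, 1.61 and 0.928 in sg5 and 2.44, 1.0 and 1.39 in sg6, every KO library above every WT library. In these libraries *Pcdhb5* passed the filter on low counts only with KO libraries, and a gene that passes that way tends to lie above 0. The log2 fold changes were 2.93 ± 0.56 and 2.52 ± 0.56 (SE, adjusted p = 0.00829 and 0.0258). In sg5 it passed without any single library; in sg6 the adjusted p was 0.087, 0.104 and 0.101 without WT library 1, 2 or 3, and 0.084 without sg6 library 1.

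In rRNA-depleted, *Pcdhb14* and *Pcdhb17* rose in sg5. *Pcdhb14* was at 5.72, 3.54 and 4.89 CPM in WT, 21.1, 11.2 and 7.50 in sg5 and 4.97, 2.76 and 2.57 in sg6 (1.49 ± 0.36 in sg5, SE, adjusted p = 0.0350). *Pcdhb17* was at 7.15, 4.36 and 6.87 CPM in WT, 28.9, 16.2 and 12.9 in sg5 and 10.7, 3.62 and 6.31 in sg6 (1.66 ± 0.37 in sg5, adjusted p = 0.0233). Both lay higher in each sg5 library than in each WT library, and both calls were lost without any one WT library or without sg5 library 1 (adjusted p between 0.050 and 0.14). *Pcdhb4*, at 2, 0 and 2 counts in WT, 29, 4 and 5 in sg5 and 10, 14 and 10 in sg6, did not pass (adjusted p = 0.0591 and 0.0959), and its WT counts lay below those of each KO library.

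Between the clones in rRNA-depleted, *Pcdhb16* and *Pcdhb14* were higher in sg5, 2 of 38 members, where 0.556% of all genes were higher and 0.925% lower (0.207% and 0.259% over genes and loci). *Pcdhb16* was at 16.7, 11.5 and 15.6 CPM in WT, 39.7, 24.9 and 24.6 in sg5 and 9.48, 3.47 and 5.93 in sg6, so the 3 lines did not overlap. It differed by 2.24 ± 0.32 between the clones (SE, adjusted p = 0.00417) and passed in each fit that leaves out one library, whereas against WT it did not pass in either clone (1.02 ± 0.30 and -1.22 ± 0.31, adjusted p = 0.0856 and 0.0545). Against WT it did pass as higher in sg5 and as lower in sg6 with DESeq2 (adjusted p = 0.0245 and 0.0139), without the filter on low counts (0.00316 and 0.000503), with only the 2 groups compared (0.0287 and 0.0412) and with the replicate block (0.00617 and 0.00183), in sg6 also with genes alone (0.0414), and with some libraries left out (sg6 library 1 or 2 for sg5, sg5 library 1 or sg6 library 1 for sg6). *Pcdhb14* differed by 1.95 ± 0.37 (adjusted p = 0.0318), a call lost without WT library 1 or 3, sg5 library 1, or sg6 library 2 or 3 (adjusted p between 0.056 and 0.19), with at least 10 counts asked of every library (0.061) and with only the 2 clones in the fit (0.14).

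In rRNA-depleted, the beta sum was at 52.2, 35.3 and 51.7 CPM in WT, 134, 75.3 and 64.2 in sg5 and 55.3, 21.2 and 32.1 in sg6, and the gamma sum at 75.0, 67.1 and 77.1 CPM in WT, 153, 249 and 105 in sg5 and 138, 65.2 and 99.9 in sg6. In both clusters the sg5 libraries lay above WT, and those of sg6 overlapped WT. Among the other chromosome 18 genes the median was 0.52 in sg5 and 0.41 in sg6, against 0.08 and 0.04 over all genes. Chromosome 12 stood at 0.37 and 0.41. With the chromosome 18 median taken off, 4 of the 7 members still passed in sg5, and *Pcdhb14* (0.98), *Pcdhgb1* (0.79) and *Pcdhgc4* (0.84) did not.

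In the rRNA-depleted table the gamma rows held a common level that the polyA table did not show. *Gm37013* is an annotated gene of the locus, and 100% of its exon bases are also exon bases of genes of these clusters. The exons of *Gm38666* and *Gm38667* were not found in the annotation used. *Gm37013* and *Gm38666* were counted 21, 30 and 34 and 21, 30 and 35 times in WT, while *Pcdha4* had 0 counts. In sg5 *Gm37013* had 53, 77 and 43 counts and in sg6 53, 33 and 38. No gamma row was lower than the *Gm37013* row of its library, and the lowest gamma rows lay close above it, at 25, 36 and 49 in WT, 67, 84 and 49 in sg5 and 57, 37 and 39 in sg6. That level, taken 22 times, equals 25.9% to 39.8% of the gamma sum of a library. In polyA, *Gm37013* had 0 to 6 counts and *Gm38666* 0, while *Gm38667* had 599 to 5208 and *Pcdha7* 0.

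**Figure D5:**
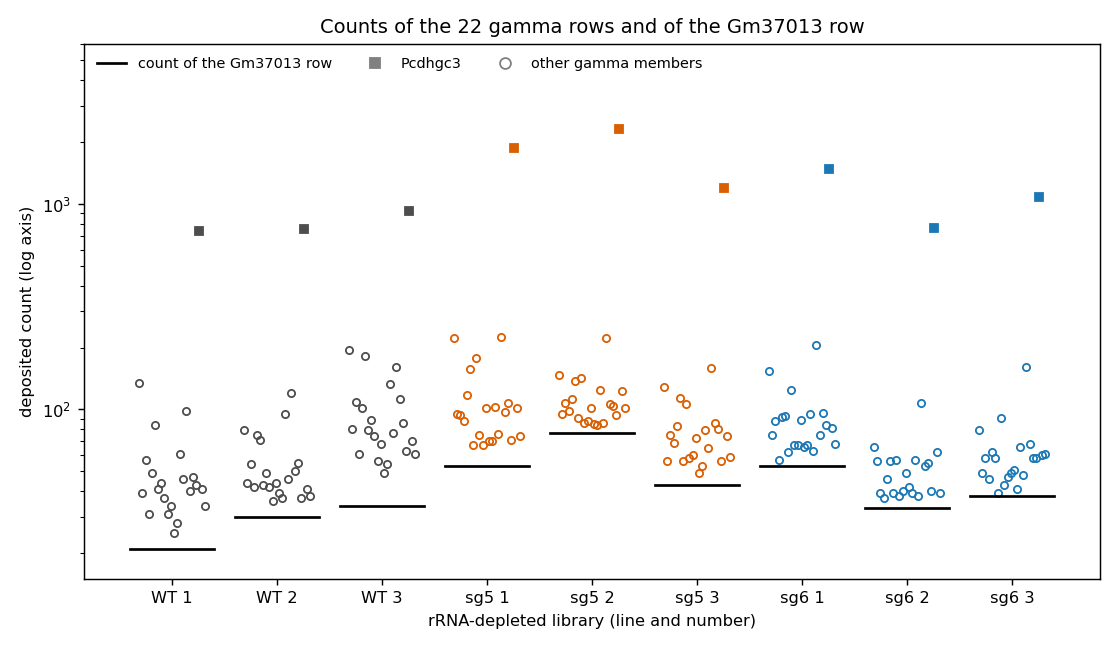
Deposited counts of the 22 gamma rows in each rRNA-depleted library on a log axis, with squares for *Pcdhgc3*, open circles for the other 21 and a black line for the *Gm37013* row of that library. No gamma row lies below the line, which runs from 21 to 77 counts.

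As deposited, *Pcdhgb1*, *Pcdhga6*, *Pcdhgc3* and *Pcdhgc4* rose in sg5 in rRNA-depleted, and all 22 gamma log2 fold changes were above 0 (median 1.0). *Pcdhgc3* was at 739, 759 and 923 counts in WT, 1871, 2307 and 1199 in sg5 and 1472, 767 and 1080 in sg6, or 1.52 ± 0.33 in sg5 (SE, adjusted p = 0.0195) and 0.70 ± 0.33 in sg6 (adjusted p = 0.404). With the *Gm37013* count taken off every gamma row, a step chosen after seeing the data, *Pcdhgc3* (1.54 ± 0.33, adjusted p = 0.0180) and *Pcdhga6* (1.75 ± 0.44, adjusted p = 0.0392) still passed in sg5. *Pcdhgb1* (1.1 ± 0.39, adjusted p = 0.159) and *Pcdhgc4* (1.30 ± 0.39, adjusted p = 0.0862) then did not, and 17 of 22 values in sg5 and 9 of 22 in sg6 were above 0, with medians of 0.38 and -0.20. Between the clones, *Pcdhgb1* passed only after this step, at 2.38 ± 0.45 (adjusted p = 0.0285), from 35, 21 and 26 counts left in sg5 and 4, 4 and 8 in sg6. Without sg5 library 2, the library highest in gamma counts, *Pcdhgc3* as deposited was at 1.09 (adjusted p = 0.070), and it did not pass without WT library 2 (0.071) or 3 (0.11) either. *Pcdhga6* did not pass without WT library 1, 2 or 3 or sg5 library 2 (adjusted p between 0.063 and 0.085). *Pcdhgb1* and *Pcdhgc4* did not pass without those same libraries either (adjusted p between 0.084 and 0.16), and *Pcdhgb1* also not without sg6 library 3 (0.056) or without the filter on low counts (0.074).

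The falls seen in polyA among gamma genes did not appear in the rRNA-depleted counts as deposited. *Pcdhga7* was at 0.91 ± 0.35 in sg5 and 0.23 ± 0.35 in sg6 there (SE, adjusted p = 0.196 and 0.872), and with the *Gm37013* count taken off at -0.21 ± 0.48 and -1.16 ± 0.52 (adjusted p = 0.885 and 0.368), from 16, 12 and 40 counts in WT, 22, 9 and 15 in sg5 and 14, 5 and 5 in sg6. *Pcdhga9* was at 1.18 ± 0.36 in sg5 as deposited and 0.35 ± 0.57 after. For the beta genes, each that passed in polyA against WT and was tested in rRNA-depleted had the same sign there: 3 of 3 in sg5 and 4 of 4 in sg6, none of them past the threshold. Of these, *Pcdhb4* and *Pcdhb8* passed the filter on low counts there only with KO libraries. A gene that passes that way tends to lie above 0, so their signs do not test agreement between the kinds of library. *Pcdhb3* was not tested there.

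Of 28 genes tested for the architecture and silencing of the clusters, among them *Ctcf*, the cohesin genes, *Smchd1*, *Setdb1* and the DNA methyltransferases, 0 passed in sg5, sg6 or between the clones in either kind of library (edgeR), with medians from -0.17 to 0.12. *Ctcf* was at 86.8, 89.7 and 75.0 CPM in WT, 94.3, 107 and 98.9 in sg5 and 92.2, 94.4 and 90.02 in sg6 in polyA. Of 7 nonclustered protocadherins tested in polyA, 0 rose, 0 fell in sg5 and 1 fell in sg6, *Pcdh9*, at 11.4, 10.7 and 8.29 CPM in WT and 6.51, 4.0 and 4.30 in sg6 (-1.03 ± 0.26, SE, adjusted p = 0.0152). In rRNA-depleted, of 5 tested, *Pcdh9* fell in both clones (-1.50 ± 0.27 and -2.04 ± 0.27) and *Pcdh19* in sg5 (-1.52 ± 0.34, adjusted p = 0.0237).

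Among 8 tested genes of a list of cadherins in polyA, 2 rose and 1 fell in each clone, where 3.18% and 3.64% of all genes tested rose and 6.96% and 7.54% fell. *Cdh2*, the N-cadherin of mesenchymal cells, was at 162, 148 and 127 CPM in WT, 323, 356 and 333 in sg5 and 466, 416 and 412 in sg6 (1.21 ± 0.10 and 1.57 ± 0.10, SE, adjusted p = 6.14e-05 and 1.4e-05). *Cdh13*, the T-cadherin, rose by 1.44 ± 0.15 and 1.96 ± 0.15, and *Cdh1*, the epithelial E-cadherin, fell from between 2.51 and 4.82 CPM in WT to at most 1.57 in the clones (-1.64 ± 0.33 and -3.23 ± 0.38). Among 17 partners and signalling genes tested in polyA, 1 rose and 2 fell in sg5 and 1 rose and 3 fell in sg6, beside those same shares over all genes. *Ret*, a receptor tyrosine kinase that binds protocadherins, rose from at most 0.244 CPM in WT to between 0.720 and 5.25 in the clones (3.98 ± 0.62 and 5.23 ± 0.62, adjusted p = 0.00174 and 0.000339). The kinase gene *Ptk2b*, whose product protocadherins inhibit, fell (-3.46 ± 0.50 and -2.68 ± 0.51), as did *Wasf1*, of the WAVE complex that binds protocadherin tails (-1.52 ± 0.16 and -1.58 ± 0.16), both in each clone. In rRNA-depleted, 0 of 16 such genes passed in sg5, and in sg6 *Ret* rose and 1 other gene fell. *Wasf1* passed in neither clone there, and *Ptk2b* was not tested. Of 5 genes of the cadherin list tested there, 2 rose and 1 fell in each clone, where 3.04% and 2.16% of all genes rose and 4.31% and 3.59% fell. *Cdh13* rose and *Cdh1* fell in both, and *Cdh2* rose in sg6 alone.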

How the data were processed

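RNA of 3 lines was measured in 9 polyA and 9 rRNA-depleted libraries, grouped by the sample labels. For polyA, the authors ran quality control with Rfastp, quantified reads with Salmon (0.8.2 in the submitters' processing notes) on mm10 gene models and deposited estimated counts of each gene, unscaled. For rRNA-depleted, the authors aligned reads with STAR (2.27.10a), allowing up to 100 alignments a read, and deposited TElocal counts of genes and transposable element loci. The deposited expected counts are whole numbers. Of 24100 Entrez numbers, 24045 matched a RefSeq symbol.

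Each table was fitted with edgeR 4.0.16 in R 4.3.3: filterByExpr (minimum count 10, minimum total 15), TMM, the quasi-likelihood test, 3 groups, no block, and Benjamini-Hochberg adjustment over the whole table. CPM is the count over library total times TMM factor, and CPM per kb divides it by GENCODE exon length. The SE is the log2 fold change over the square root of F. Named members passed against WT in either kind of library or are among the 3 highest of a cluster per kb; other genes are those of the lists that passed in both clones, with *Atrx*, *Taf7*, *Slc25a2* and *Ctcf*, the last chosen after its values were seen, as were *Pcdhb1*, *Pcdhb6*, *Pcdhb2*, *Pcdhgb2*, *Pcdhgc5*, *Pcdha4*, *Pcdha7*, *Pcdh9*, *Pcdh19*, *Adgre1*, *Nt5e* and the 3 *Gm* genes. Members, lists and tests were chosen with earlier results of these data known. Alternatives were DESeq2 1.42.0, other scaling, filters, samples and thresholds, the replicate block, thinned counts, genes alone, and, chosen after seeing the data, the counts less *Gm37013* and the fold changes less the chromosome 18 median. Libraries of different lines share replicate numbers 1 to 3; the correlation of deviations from the group means between same-numbered libraries was over 0.1 in every pair only between sg5 and sg6 in polyA (0.336, 0.277 and 0.373), where the numbers were taken as pairing the libraries. The steps were tested on simulated data. Chromatin data of the study were not analysed here. Figures were drawn with matplotlib 3.10.9.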

Additional observations from a re-analysis of the deposited data

Results flagged for a closer look

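Both KO clones were set against the same WT line, and 3 members in polyA and 2 in rRNA-depleted differed between the clones themselves (edgeR, adjusted p below 0.05, log2 fold change beyond 1). In polyA, sg5 was higher than sg6 by 2.76 in *Pcdhgb1*, 1.26 in *Pcdhb14* and 1.16 in *Pcdhb16* on the log2 scale. In rRNA-depleted, it was higher by 1.95 in *Pcdhb14* and 2.24 in *Pcdhb16*. Each was higher in 3 of 3 sg5 libraries than in any sg6 library.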

How the results depend on the processing

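The counts of members past the threshold depended on several choices. With glmTreat against a log2 fold change of 1, 1 member rose and 0 fell in sg5 and in sg6, and 1 was higher in sg5 than in sg6 in polyA, with 0 in each in rRNA-depleted. Of the 15480 genes in polyA, glmTreat called 173 higher and 521 lower in sg5, and 226 and 594 in sg6. With at least 10 counts in every library, 4 members rose in sg5 and 3 in sg6 in polyA, and 0 rose in sg6 and 1 was higher in sg5 than in sg6 in rRNA-depleted. Under that filter, 329 of 13438 genes rose in sg5 and 372 in sg6 in polyA. In rRNA-depleted, 176 of 11816 genes rose in sg6 and 41 were higher in sg5 than in sg6. With no filter, 2 rose and 1 fell in sg6 and 4 were higher in sg5 than in sg6 in rRNA-depleted. Of 18885 genes there, 397 rose and 558 fell in sg6, and 195 were higher in sg5 than in sg6. With the adjusted p alone, 9 rose and 5 fell in sg6 in polyA, beside 16.1% and 14.6% of all genes. Less the chromosome 18 median, 3 rose in sg5, 2 rose and 5 fell in sg6 in polyA, and 4 rose in sg5 in rRNA-depleted. DESeq2 called 5 between the clones in polyA, and 16 rises in sg5 and 2 rises and 1 fall in sg6 in rRNA-depleted. With only the 2 groups compared, 1 fell in sg6 and 1 differed between the clones in rRNA-depleted, and with genes alone 1 fell in sg6. Of all genes in those fits, 545 of 13041 fell in sg6 with only the 2 groups, and 573 of 13289 with genes alone. Between the clones, 42 of 12741 genes were higher in sg5 and 70 lower.

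Leaving out one library at a time, the count in polyA ran from 4 to 11 rises and 1 to 3 falls in sg5, from 3 to 8 rises and 3 to 6 falls in sg6, and from 3 to 4 between the clones. In rRNA-depleted it ran from 1 to 11 rises in sg5, with 1 without WT library 2 or 3, 2 without WT library 1, 4 without sg5 library 2 and 11 without sg5 library 3, from 0 to 1 rises and 0 to 1 falls in sg6, and from 1 to 4 between the clones, with 4 without sg6 library 1. The rises in sg5 over all genes moved too. They were 399 of 13526, 257 of 13475 and 207 of 13407 without WT library 1, 2 or 3. Without sg5 library 2 they were 338 of 13565, and without sg5 library 3, 495 of 13521. Of the values that passed for named members, 266 of 312 under other choices and 222 of 279 with one library left out still passed, and 0 changed sign. The first tally includes the adjusted p alone, which every such value passes by definition. The second includes fits without a library of the line outside the comparison, which change neither of its arms. With 2 libraries in an arm, the spread is pooled over the lines.

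In the comparisons other than that between the clones in polyA, the replicate numbers were not taken as pairing the libraries. The correlation of deviations fell to 0.0257 in polyA and 0.0554 in rRNA-depleted, where each would have to be over 0.1. This cutoff does not show that the libraries were unpaired. Same-numbered libraries averaged 0.260 in polyA and 0.121 in rRNA-depleted, against -0.127 and -0.0601 for libraries of different number. With the replicate block, 5 members in place of 3 differed between the clones in polyA and 1 fell in sg6 in rRNA-depleted, and 31 of 31 values that passed for named members still did. Depth limits the alpha cluster and the first beta genes, and rRNA-depleted depth the gamma genes near the shared level.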
